A study of Mus musculus with 27 samples.

Results

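The sterol and fatty acid synthesis genes described here are 34 genes of a table of 56691, taken by gene symbol from the enzymes of cholesterol synthesis, of fatty acid synthesis, elongation and desaturation, and from their regulators. All 34 were in the table and all 34 passed the filter on low counts, among 15115 genes that did. Of these, 18 are enzymes of sterol synthesis, 10 are enzymes of fatty acid synthesis, elongation and desaturation, and 6 are regulators or transport proteins. They were measured by RNA sequencing in mouse gastric organoids, which are epithelial cultures grown from cells of the stomach corpus. Gpx4 KO organoids (from Gpx4F/F;Mist1Cre/ERT2;RFPLSL mice, labelled Mist1+) were sampled at passages 5, 10 and 15, called P5, P10 and P15. WT organoids (from Mist1Cre/ERT2;RFPLSL mice, labelled Mist1+) were sampled at the same passages, and organoids labelled Mist1- and WT at P5 only. All were kept in the same proliferative culture, and each of these 7 groups holds 3 libraries. Bhlha15 encodes Mist1, which secretory cells, gastric chief cells among them, use as a transcription factor, and the tamoxifen-dependent Cre under its promoter turns on RFP in those cells and, in Gpx4F/F mice, removes floxed Gpx4. The labels describe a sort of RFP-positive cells from adult mice, and do not say how the Mist1- cultures were started. The labels state neither the animals per group nor their exact age. Gpx4 detoxifies lipid hydroperoxides in membranes and so holds back ferroptosis, and the Gpx4 comparison asks what its loss does to the organoids. Whether replicates came from different cultures is not given, and p-values therefore reflect only the spread between these libraries, which may be technical.

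Both pathways start from acetyl-CoA in the cytosol. Sterol synthesis runs through mevalonate and squalene to lanosterol and then by demethylation, reduction and desaturation to cholesterol, while fatty acid synthesis makes palmitate, which elongases lengthen and desaturases give double bonds. Transcription of both is driven by SREBP proteins, which Scap carries to the Golgi for cleavage and which Insig proteins hold in the endoplasmic reticulum when sterols are plentiful. Double bonds matter to Gpx4 because polyunsaturated lipids, which the Fads desaturases help to make, are the ones that peroxidise most readily.

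The libraries held 13805585 to 19608956 counts. Gpx4 had 101, 98.9 and 98.2 CPM in KO organoids at P5, against 132, 123.5 and 134 CPM in WT organoids. CPM is the count scaled to the TMM-adjusted library total. The labels do not say which exons are floxed, so a count over the whole gene checks the label only in part. The log2 fold change of Gpx4 in KO over WT organoids was -0.38 ± 0.14 (adjusted p = 0.0362) at P5, -0.30 ± 0.14 (adjusted p = 0.094) at P10 and -0.72 ± 0.14 (adjusted p = 0.000215) at P15. Gpx4 thus fell at P5 and P15 and missed the threshold at P10, and no KO library reached a WT library at any passage. Bhlha15 was lower in the organoids labelled Mist1+. It had 5.02, 6.21 and 5.28 CPM there, against 12.8, 8.61 and 9.76 CPM in those labelled Mist1- (log2 fold change -0.91 ± 0.14, adjusted p = 1.89e-05). The labels describe a sort of RFP-positive cells from mice, so Bhlha15 mRNA in cultures at P5 does not test them. Epithelial markers (Epcam, Cdh1, Krt8, Krt18 and Krt19) summed to 5500 to 10600 CPM in each library. The chief cell markers Pga5 and Lipf were at 0 in all 7 groups, as were the adipocyte markers Adipoq, Plin1 and Lep. Other members of both lists were present: all 5 chief markers summed to 10 to 38.2 CPM in each library, and all 6 adipocyte markers to 18.6 to 44.2 CPM. In KO against WT organoids at P5, both tested adipocyte markers fell, and of 2 tested chief markers 1 rose and 1 fell. The 6 fibroblast markers summed to at most 2.43 CPM. The WT libraries at P15 stood apart from one another, with a biological coefficient of variation of 21% against 1.88% to 3.09% in the other groups. In 2 of these 3 libraries the deviation of a gene from the other replicates went with its exonic length. The Spearman correlation across 15115 genes was -0.424 in replicate 1, 0.423 in replicate 2 and 0.092 in replicate 3, while the 18 libraries of the other groups gave -0.171 to 0.152. Across the 34 genes it was -0.532 in replicate 1, 0.659 in replicate 2 and 0.05 in replicate 3, against -0.385 to 0.286 in the other 18 libraries. Because these replicates differ, most results that use WT P15 are given near the end, with values in each library for the genes described there.

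Promoter sequence is shown for 4 members, to put sequence beside members that were called in KO organoids at both P5 and P10. Hmgcs1 and Sc5d stand for the sterol enzymes that fell in KO organoids, and Fads2 and Elovl6 for the fatty acid enzymes that rose. The stretches run from 250 bases before to 50 after the annotated start, 5′ to 3′ along the gene, and come from RefSeq on GRCm38.p6. Capitals mark 3 motifs on either strand: TCACNCCAC, a form of the sterol regulatory element that SREBP binds, CCAAT, the box of the cofactor NF-Y, and GGGCGG, the GC box of Sp1.
Hmgcs1, chr13:119690101-119690400, plus strand: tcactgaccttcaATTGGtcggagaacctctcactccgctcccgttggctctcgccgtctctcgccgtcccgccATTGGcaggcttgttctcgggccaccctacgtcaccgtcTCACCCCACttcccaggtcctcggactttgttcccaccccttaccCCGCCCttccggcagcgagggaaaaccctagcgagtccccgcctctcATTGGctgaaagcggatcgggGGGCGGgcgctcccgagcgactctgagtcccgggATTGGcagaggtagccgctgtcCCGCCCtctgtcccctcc
Sc5d, chr9:42264251-42264550, minus strand: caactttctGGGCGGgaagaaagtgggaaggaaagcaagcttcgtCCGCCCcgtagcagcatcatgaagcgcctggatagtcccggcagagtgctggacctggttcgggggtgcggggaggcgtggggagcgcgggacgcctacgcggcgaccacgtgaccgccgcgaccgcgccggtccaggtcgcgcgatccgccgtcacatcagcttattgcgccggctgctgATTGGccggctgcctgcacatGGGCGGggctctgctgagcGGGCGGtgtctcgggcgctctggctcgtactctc
Fads2, chr19:10101454-10101753, minus strand: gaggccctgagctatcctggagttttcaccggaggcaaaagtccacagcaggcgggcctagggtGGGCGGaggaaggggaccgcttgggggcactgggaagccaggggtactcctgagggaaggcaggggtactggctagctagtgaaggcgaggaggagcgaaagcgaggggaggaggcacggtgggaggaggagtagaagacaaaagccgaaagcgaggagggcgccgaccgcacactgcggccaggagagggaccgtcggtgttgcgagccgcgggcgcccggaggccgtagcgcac
Elovl6, chr3:129532136-129532435, plus strand: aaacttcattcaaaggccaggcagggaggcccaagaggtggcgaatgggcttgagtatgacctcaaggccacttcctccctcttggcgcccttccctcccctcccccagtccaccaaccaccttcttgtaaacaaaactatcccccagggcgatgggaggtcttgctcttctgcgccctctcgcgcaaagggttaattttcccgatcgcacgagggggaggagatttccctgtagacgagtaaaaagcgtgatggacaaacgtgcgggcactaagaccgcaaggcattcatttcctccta
The TCACNCCAC motif began 137 bases before the start in Hmgcs1, which also held 4 CCAAT and 3 GGGCGG matches. Sc5d held 1 CCAAT and 4 GGGCGG matches, Fads2 held 1 GGGCGG match, and none of the 3 motifs was found in the Elovl6 window. RefSeq promoters were at hand for 27 of the 34 genes, some with more than 1. The 18 sterol promoters belong to 15 genes and the 8 fatty acid promoters to 7. CCAAT was present in 14 of 18 sterol promoters (77.8%) and in 4 of 8 fatty acid promoters (50.0%), against 37.4% of all 32851 promoters of this length. GGGCGG was present in 15 of 18 (83.3%) and 4 of 8 (50.0%), against 35.7% of all. Counted by gene, CCAAT was present in 14 of 15 sterol (93.3%) and 4 of 7 fatty acid genes (57.1%), against 41.1% of all genes. By gene, GGGCGG was present in 14 of 15 (93.3%) and 3 of 7 (42.9%), against 38.2%. TCACNCCAC was present in 1 of 18 sterol promoters and in 0 of 8 fatty acid promoters, against 1.24% of all. A match is a description of the letters and not a binding site, and other forms of these motifs were not searched.

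On the FPKM scale, which divides by exonic length and so lets genes be compared, Scd2 stood far above the rest. Scd2, a stearoyl-CoA desaturase that makes monounsaturated fatty acids, had a mean level over the 7 groups of 729 FPKM. The next were Cyp51, the lanosterol demethylase, at 160 FPKM and Hmgcs1, the HMG-CoA synthase at the entry of the mevalonate route, at 154 FPKM. Scd1, the desaturase that dominates in liver, had 38.6 FPKM. The lowest were Scap at 8.23 FPKM and Acaca, the acetyl-CoA carboxylase that commits carbon to fatty acids, at 6.06 FPKM. Fads1, the delta-5 desaturase of polyunsaturated fatty acids, was also low at 11.2 FPKM, yet varied most between groups, with a ratio of highest to lowest group mean of 2.42. Insig2 followed at 1.9 and Ebp at 1.67, while the mRNA of the SREBP genes themselves varied little, with a ratio of 1.19 for Srebf2 and 1.10 for Srebf1.

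**Figure D1:**
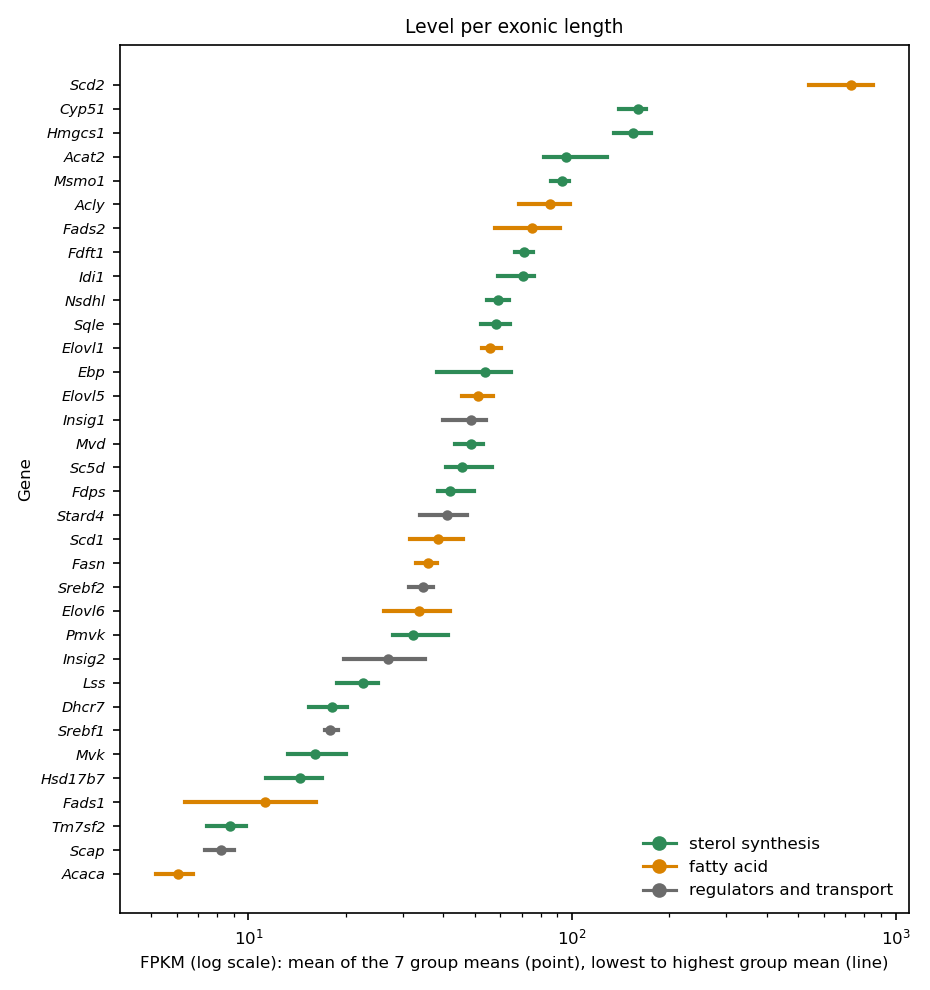
Levels of the 34 genes in FPKM on a log axis; the point is the mean of the 7 group means and the line runs from the lowest to the highest group mean, coloured by sterol synthesis, fatty acid, or regulators and transport. Scd2 lies at 729 FPKM and Acaca at 6.06 FPKM, and Fads1 has the widest line for its level.

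In Gpx4 KO organoids at P5 and P10, the desaturases Fads1 and Fads2 and the elongase Elovl6 were higher than in WT organoids, while the sterol enzymes Hmgcs1, Cyp51 and Sc5d and the regulator Insig2 were lower. Rose and fell are used for genes with an adjusted p under 0.05 in edgeR's quasi-likelihood test with Benjamini-Hochberg adjustment over the 15115 genes tested. At P5, 3 of 10 fatty acid genes rose and 1 fell, while 1 of 18 sterol genes rose and 4 fell. At P10, 5 of 10 fatty acid genes rose and 0 fell, while 0 of 18 sterol genes rose and 7 fell. In all, 10 of the 34 genes were called at P5, where 30.1% (13% higher, 17% lower) of all genes were. At P10 13 of 34 were called, where 34.4% (15.9% higher, 18.5% lower) of all genes were, so the share called was near the background at both passages. Of the called genes, most fatty acid genes rose and most sterol genes fell, but the counts are small. The 4 of 18 sterol genes that fell at P5 were near the 17% of all genes, and a difference in direction was not tested. The median log2 fold change of the fatty acid genes was 0.098 at P5 and 0.145 at P10. That of the sterol genes was -0.122 and -0.147, and that of all genes was -0.004 and -0.011. These medians were small: the quartiles of all genes were -0.249 and 0.192 at P5 and -0.267 and 0.221 at P10, and the medians lay between them. Changes were above 0 in 6 of 10 fatty acid genes at each passage, and in 7 of 18 sterol genes at P5 and 3 at P10. With limma on log2(FPKM + 1), the fatty acid median was 0.169 at P5 and 0.202 at P10 and the sterol median -0.033 and -0.071, so the size of both depended on the scaling and their signs did not. The fit shares its spread with the variable WT P15 libraries. Without them 23 genes were called at P5, with 6 fatty acid genes rising and 2 falling and 2 sterol genes rising and 10 falling, where 47.4% (22.2% higher, 25.2% lower) of all genes were called. At P10 24 were called in that fit, with 6 fatty acid genes rising and 3 falling and 2 sterol genes rising and 10 falling, where 52% (24.7% higher, 27.3% lower) of all genes were.

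**Figure D2:**
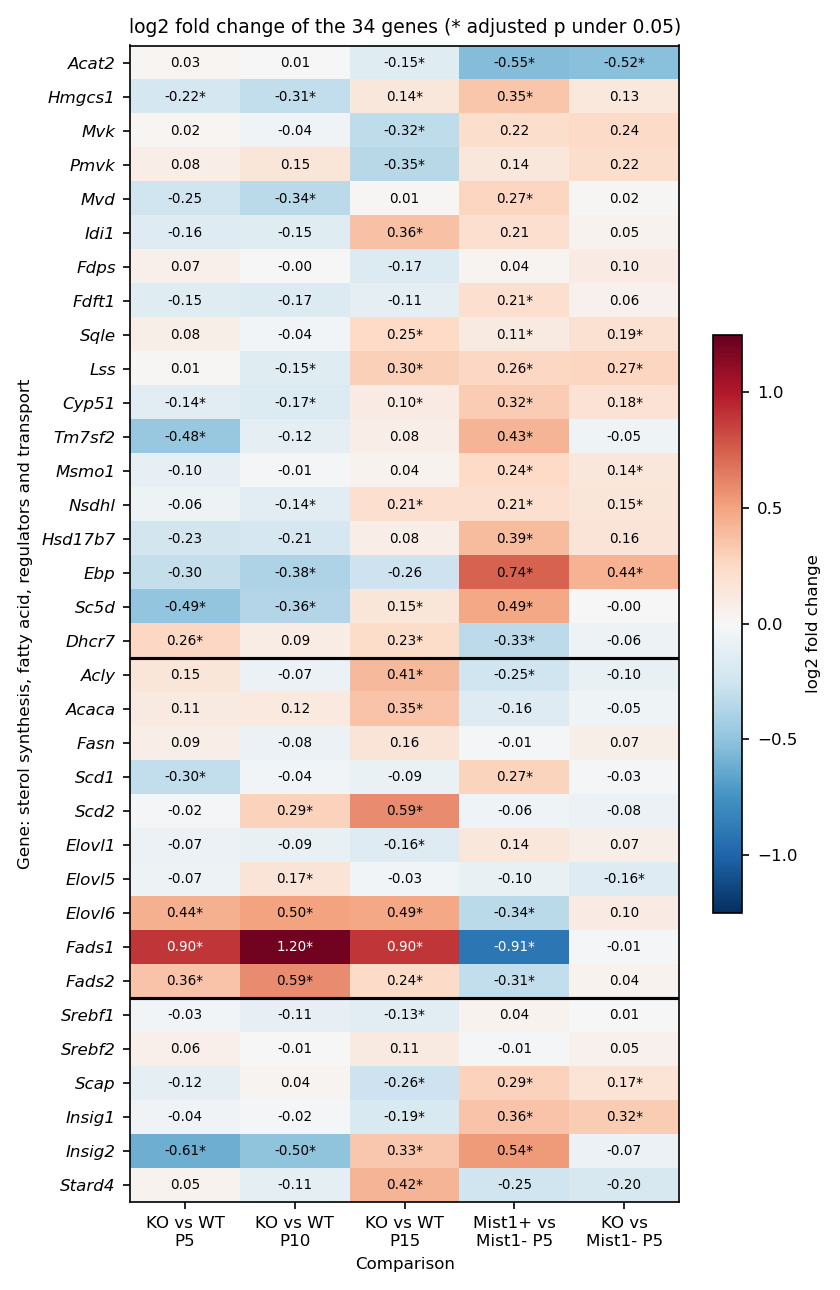
Log2 fold changes of the 34 genes (rows, in pathway order, with lines between sterol synthesis, fatty acid, and regulators and transport) in 5 comparisons (columns); red is higher and blue lower in the first-named group, and a star marks an adjusted p under 0.05. Fads1 has the largest change, 1.20 at P10, and most sterol rows are blue for KO against WT at P5 and P10.

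Fads1 (ENSMUSG00000010663, chr19:10182888-10196877 on GRCm38, plus strand) rose at each passage. It had 60.4, 62.8 and 58.6 CPM in KO organoids at P5, against 33.4, 32.3 and 31.95 CPM in WT organoids. At P10 it had 73.5, 71.9 and 73.0 CPM in KO organoids, against 31.2, 30.1 and 33.6 CPM in WT organoids. At P15 it had 77.8, 72.5 and 79.1 CPM in KO organoids, against 39.4, 44.3 and 39.4 CPM in WT organoids. No KO library overlapped a WT library at any passage, and the lowest KO value lay above the highest WT value of all 3 passages. The log2 fold change was 0.90 ± 0.06 (adjusted p = 2.29e-10) at P5, 1.20 ± 0.06 (adjusted p = 2.26e-12) at P10 and 0.90 ± 0.06 (adjusted p = 7.49e-11) at P15, and Fads1 was called in all 14 alternative fits at P5 and P10 and all 13 at P15.

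Fads2 (ENSMUSG00000024665, chr19:10062765-10101746, minus strand), the delta-6 desaturase that acts before Fads1 on polyunsaturated fatty acids, followed the same order. It had 258, 256 and 251 CPM in KO organoids at P5, against 197, 203 and 198 CPM in WT organoids. At P10 the values were 288, 305 and 299 CPM in KO organoids, against 198, 202 and 195 CPM in WT organoids. The groups did not overlap, and the log2 fold change was 0.36 ± 0.05 (adjusted p = 1.07e-05) at P5 and 0.59 ± 0.05 (adjusted p = 9.71e-09) at P10. The starts of Fads1 and Fads2 lie 81142 bases apart on opposite strands, and other genes within 100000 bases of the pair, looked at after these values were known, did not all move with them. Fads3, a related gene beside them, had a log2 fold change of -0.36 ± 0.06 (adjusted p = 6.45e-05) at P5 and -0.15 ± 0.06 (adjusted p = 0.0535) at P10. Dagla, which makes the endocannabinoid 2-arachidonoylglycerol, rose, with 0.88 ± 0.13 (adjusted p = 1.35e-05) at P5 and 0.81 ± 0.12 (adjusted p = 2.6e-05) at P10. Fen1 rose too, with 0.58 ± 0.13 (adjusted p = 0.0012) at P5 and 0.63 ± 0.12 (adjusted p = 0.000341) at P10. Tmem258 was not called at P5 (adjusted p = 0.796) and rose at P10, with 0.40 ± 0.11 (adjusted p = 0.00661). At P15, where the WT libraries disagreed, Tmem258 was called too, with 0.27 ± 0.11 (adjusted p = 0.0475). Fth1 and Myrf fell at P5, with -0.48 ± 0.13 (adjusted p = 0.00591) and -0.26 ± 0.07 (adjusted p = 0.00455), and were not called at P10.

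Elovl6 (ENSMUSG00000041220, chr3:129532355-129638495, plus strand) lengthens palmitate to stearate. It had 243, 239 and 235.5 CPM in KO organoids at P5, against 169, 183 and 176 CPM in WT organoids. At P10 it had 264, 267 and 264 CPM in KO organoids, against 187, 183 and 192.5 CPM in WT organoids. The groups did not overlap at either passage, and the log2 fold change was 0.44 ± 0.08 (adjusted p = 0.000329) at P5 and 0.50 ± 0.08 (adjusted p = 7.43e-05) at P10. Elovl5, which lengthens polyunsaturated fatty acids, rose at P10 only, with a log2 fold change of 0.17 ± 0.05 (adjusted p = 0.0126), against -0.07 ± 0.05 (adjusted p = 0.336) at P5. That difference between passages was 0.23 ± 0.07 (adjusted p = 0.0526) and was not called. Elovl1, the elongase of very long chains, was not called at P5 or P10. It had 151 ± 1.22 CPM in KO and 158 ± 2.58 CPM in WT organoids at P5 (SD, n = 3 each). Without the WT P15 libraries in the fit Elovl1 fell at P10 (adjusted p = 0.00867) and Elovl5 fell at P5 (adjusted p = 0.0425). The difference between passages of Elovl5 was called in that fit (adjusted p = 9.01e-07).

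The 2 stearoyl-CoA desaturases differed from each other. Scd1 fell in KO organoids at P5, with 171, 178 and 187 CPM in KO against 222, 225 and 215 CPM in WT organoids and a log2 fold change of -0.30 ± 0.09 (adjusted p = 0.017). At P10 it had 157, 155 and 155 CPM in KO against 164, 160.2 and 154 CPM in WT organoids, and the groups overlapped. Scd2 (chr19:44293674-44306864, plus strand) overlapped at P5, with 4067, 4010 and 3985 CPM in KO against 4087, 4114 and 4043 CPM in WT organoids. At P10 Scd2 rose, with 4487, 4550 and 4666 CPM in KO against 3766, 3723 and 3745 CPM in WT organoids and a log2 fold change of 0.29 ± 0.09 (adjusted p = 0.0187). The call of Scd1 at P5 held in 8 of 14 alternative fits and that of Scd2 at P10 in 11 of 14.

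Of the enzymes that lead to palmitate, none was called at P5 or P10 in the fit of all libraries, and all 3 were called at both passages without the WT P15 libraries. Acly, which makes cytosolic acetyl-CoA from citrate, had 489, 479 and 489 CPM in KO and 431.5, 439 and 438 CPM in WT organoids at P5, where all KO values lay above all WT values. At P10 Acly had 422, 434 and 440.4 CPM in KO and 459, 459 and 447 CPM in WT organoids, with all KO values below. Its log2 fold change was 0.15 ± 0.07 (adjusted p = 0.11) at P5 and -0.07 ± 0.07 (adjusted p = 0.456) at P10, so neither difference was called. Without the WT P15 libraries in the fit Acly was called upward at P5 (adjusted p = 2.8e-11) and downward at P10 (adjusted p = 0.00159). Acaca had a log2 fold change of 0.11 ± 0.12 (adjusted p = 0.528) at P5 and 0.12 ± 0.12 (adjusted p = 0.438) at P10. Fasn, the palmitate synthase, had 0.09 ± 0.08 (adjusted p = 0.434) at P5 and -0.08 ± 0.07 (adjusted p = 0.462) at P10. Without the WT P15 libraries Acaca rose at P5 (adjusted p = 0.0125) and P10 (adjusted p = 0.00243), and Fasn rose at P5 (adjusted p = 0.00222) and fell at P10 (adjusted p = 0.00581).

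Of the sterol enzymes, Sc5d and Tm7sf2 had the largest called changes at P5. Sc5d (ENSMUSG00000032018, chr9:42251595-42264256, minus strand), the sterol C5 desaturase that makes 7-dehydrocholesterol, fell in KO organoids. It had 201, 209 and 205 CPM in KO organoids at P5, against 291, 284 and 289 CPM in WT organoids. At P10 it had 197, 196.5 and 197 CPM in KO organoids, against 252, 249 and 258 CPM in WT organoids. The groups were well apart at both passages, and the log2 fold change was -0.49 ± 0.05 (adjusted p = 3.66e-08) at P5 and -0.36 ± 0.05 (adjusted p = 2.45e-06) at P10. Dhcr7, which reduces 7-dehydrocholesterol to cholesterol and so uses the product of Sc5d, went the other way: it had 115, 112 and 111 CPM in KO organoids at P5, against 94.5, 91.6 and 94.9 CPM in WT organoids. Dhcr7 rose at P5, with a log2 fold change of 0.26 ± 0.06 (adjusted p = 0.00113), and was not called at P10, with 0.09 ± 0.06 (adjusted p = 0.221). Without the WT P15 libraries in the fit Dhcr7 rose at P10 too (adjusted p = 0.0431). Sc5d and Dhcr7 were both called at P5 in all 14 alternative fits.

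Ebp, the sterol isomerase that acts before Sc5d, had 119, 118 and 121.5 CPM in KO organoids at P5, against 151, 142 and 148 CPM in WT organoids. At P10 Ebp had 108, 112 and 100.5 CPM in KO organoids, against 139, 135 and 143 CPM in WT organoids. No libraries overlapped at either passage, but Ebp was called only at P10, with a log2 fold change of -0.38 ± 0.12 (adjusted p = 0.0156), against -0.30 ± 0.12 (adjusted p = 0.0592) at P5. Without the WT P15 libraries in the fit Ebp fell at P5 too (adjusted p = 1.95e-14). Tm7sf2, a C14 sterol reductase, fell at P5, with 31.4, 33.6 and 31.3 CPM in KO and 45.1, 45.8 and 43.3 CPM in WT organoids and a log2 fold change of -0.48 ± 0.09 (adjusted p = 0.00022). Tm7sf2 shares 12.1% of its exonic length with Vps51, so part of its count may belong to that gene. Nsdhl, a C4 demethylation enzyme, fell at P10 with a log2 fold change of -0.14 ± 0.04 (adjusted p = 0.0137).

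At the entry of the pathway, Hmgcs1 (ENSMUSG00000093930, chr13:119690379-119708260, plus strand) had 676.5, 679.7 and 669.9 CPM in KO organoids at P5, against 783, 786.5 and 793 CPM in WT organoids. At P10 it had 676, 657 and 685 CPM in KO organoids, against 816, 842 and 843 CPM in WT organoids. Hmgcs1 fell at both passages without overlap, with a log2 fold change of -0.22 ± 0.06 (adjusted p = 0.00498) at P5 and -0.31 ± 0.06 (adjusted p = 0.000213) at P10. Cyp51 fell likewise, with 702, 711 and 689.6 CPM in KO against 763, 778 and 776 CPM in WT organoids at P5 and a log2 fold change of -0.14 ± 0.04 (adjusted p = 0.0136). At P10 the change of Cyp51 was -0.17 ± 0.04 (adjusted p = 0.00278). Mvd, the mevalonate diphosphate decarboxylase, fell at P10 with a log2 fold change of -0.34 ± 0.10 (adjusted p = 0.0151), and Lss, which closes squalene epoxide to lanosterol, fell with -0.15 ± 0.05 (adjusted p = 0.0287). Without the WT P15 libraries in the fit Mvd fell at P5 too (adjusted p = 8.26e-09). In the fit of all libraries, Acat2, Mvk and Pmvk of the steps up to isopentenyl diphosphate, and Idi1, its isomerase, had no call at P5 or P10. Nor did Fdps, Fdft1 and Sqle of the steps to squalene epoxide, or Msmo1 and Hsd17b7 of C4 demethylation. Their log2 fold changes lay between -0.23 for Hsd17b7 at P5 and 0.15 for Pmvk at P10. Without the WT P15 libraries, Idi1, Fdft1, Msmo1 and Hsd17b7 fell at P5 (adjusted p of 2.22e-06 or less) and Sqle rose (adjusted p = 0.00291). At P10 in that fit Idi1, Fdft1 and Hsd17b7 fell (adjusted p of 1.66e-05 or less) and Pmvk rose (adjusted p = 0.007). Hmgcs1 shares 12.1% of its exonic length with Gm48342 and Fdft1 18.3% with Ctsb, and the strand setting of the counting is not given. The calls of Hmgcs1 and Cyp51 at P5 were lost in 2 and 5 of 14 alternative fits, and the call of Lss at P10 in 8 of 14.

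Among the regulators, Insig2 (ENSMUSG00000003721, chr1:121304353-121332589, minus strand) was the only one of the 6 called at P5 or P10 in the fit of all libraries. It had 82.2, 81.7 and 86.5 CPM in KO organoids at P5, against 129, 124 and 128 CPM in WT organoids. At P10 it had 87.3, 88.9 and 85.5 CPM in KO organoids, against 127, 118 and 125 CPM in WT organoids. Insig2 fell at both passages, with a log2 fold change of -0.61 ± 0.07 (adjusted p = 1.27e-06) at P5 and -0.50 ± 0.07 (adjusted p = 1.48e-05) at P10, in all 14 alternative fits of each. Insig1, its paralogue and a known SREBP target in mouse, had 149, 152 and 162 CPM in KO and 165, 160 and 152 CPM in WT organoids at P5, and the groups overlapped. Srebf1 had 98.35, 99.5 and 101 CPM in KO and 99.5, 103 and 102 CPM in WT organoids at P5. Srebf2 had 270.1, 263 and 254 CPM in KO and 241, 259 and 253 CPM in WT organoids. Neither Srebf gene, nor Scap, nor Stard4, a sterol carrier, was called at P5 or P10 in the fit of all libraries. Scap shares 13.2% of its exonic length with 5830462I19Rik on the opposite strand. Without the WT P15 libraries, Srebf2 rose (adjusted p = 0.0329) and Scap fell (adjusted p = 0.0273) at P5. At P10 in that fit Srebf1 (adjusted p = 0.0139) and Stard4 (adjusted p = 0.000168) fell. These are mRNA levels, and SREBP cleavage was not measured.

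**Figure D3:**
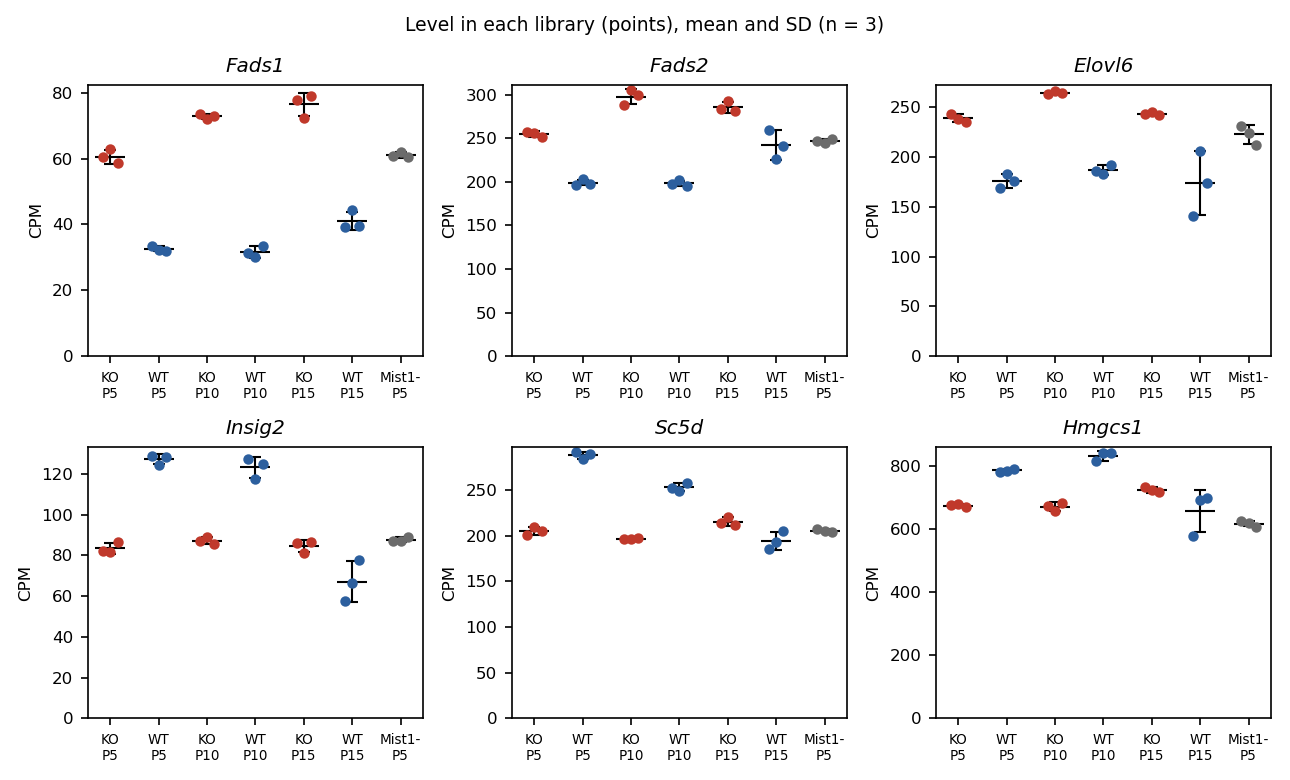
CPM of Fads1, Fads2, Elovl6, Insig2, Sc5d and Hmgcs1 in each library (points: red KO, blue WT, grey Mist1-), with the mean and SD of 3 libraries (lines); the axes start at 0. KO points lie above WT points at P5 and P10 for the 3 fatty acid genes and below them for the other 3 genes, and the WT points of Elovl6 and Insig2 are more spread at P15 than at P5 and P10.

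Averaged over each pathway, the gap between fatty acid and sterol genes was wider in KO libraries. The mean log2 CPM of the 10 fatty acid genes minus that of the 18 sterol genes was 0.578, 0.608 and 0.61 in KO libraries at P5, against 0.321, 0.359 and 0.309 in WT libraries. At P10 it was 0.668, 0.718 and 0.75 in KO libraries, against 0.339, 0.31 and 0.325 in WT libraries. The 3 libraries labelled Mist1- had 0.719, 0.709 and 0.693, and at P15 it was 0.655, 0.651 and 0.644 in KO libraries, against 0.166, 0.639 and 0.395 in WT libraries. Each KO library thus lay above each WT library of its passage, by a wide margin at P5 and P10, while at P15 WT replicate 2 came close to the KO libraries. The gap is a mean and not a shift shared by all genes. At P5 only Fads1, Fads2 and Elovl6 rose among the 10 fatty acid genes, while 1 fell and 6 were not called. At P10 5 rose and 5 were not called. Of the 18 sterol genes 13 were not called at P5 and 11 at P10. Without Scd2, which alone makes up most of the fatty acid reads, the summed level of the other 9 fatty acid genes was 2054, 2055 and 2057 CPM in KO libraries at P5, against 1885, 1909 and 1865 CPM in WT libraries.

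**Figure D4:**
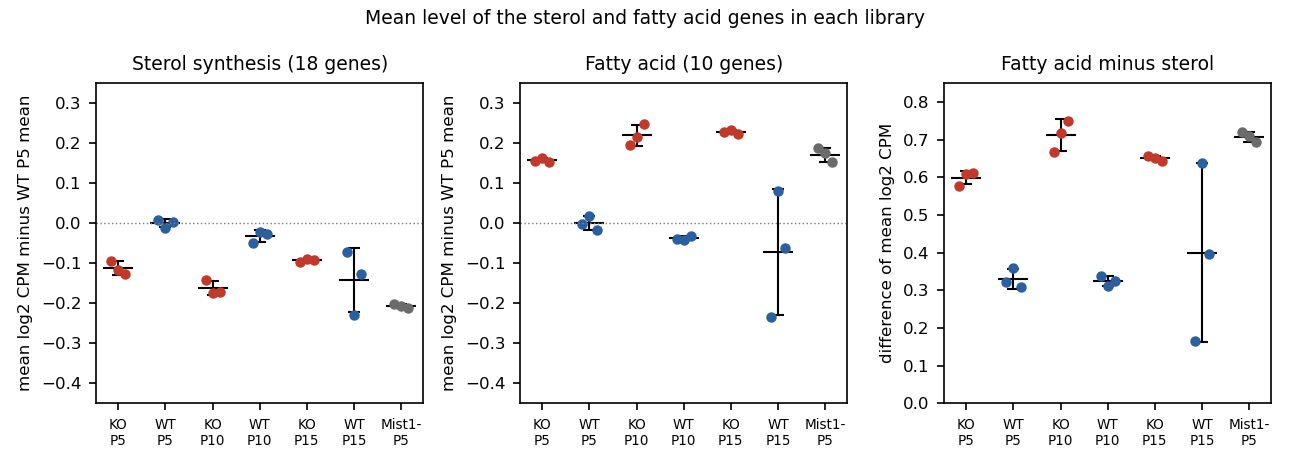
Mean log2 CPM of the 18 sterol and the 10 fatty acid genes in each library, as the difference from the WT P5 mean (left and middle), and the fatty acid mean minus the sterol mean (right); points are libraries and lines the mean and SD of 3. The fatty acid minus sterol difference lies between 0.578 and 0.750 in KO libraries and between 0.309 and 0.359 in WT libraries at P5 and P10, while the WT libraries at P15 span 0.166 to 0.639.

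Markers of cell types and of proliferation also differed between these groups. Gastric pit markers (Gkn1, Gkn2, Muc5ac, Tff1 and Psca) summed to 1310 to 1340 CPM in KO libraries at P5, against 4590 to 4730 CPM in WT libraries, and to 2190 to 2380 CPM in KO libraries at P10, against 6470 to 6740 CPM in WT libraries. All 5 were above 0 in each group, and all 5 fell at both passages. Proliferation markers (Mki67, Top2a, Ccna2, Ccnb1, Rrm2 and Mcm2) summed to 1930 to 1980 CPM in KO libraries at P5, against 1330 to 1380 CPM in WT libraries, and all 6 rose at P5 and P10. Mucous neck markers (Muc6, Tff2 and Aqp5) summed to 122 to 123 CPM in KO libraries at P5, against 32.5 to 35.4 CPM in WT libraries. In bulk RNA, fewer cells of a type and less RNA per cell cannot be told apart, and the part of these markers in the lipid gene results was not tested. At P15 the pit markers stood the other way round, with 4550 to 4630 CPM in KO libraries against 797 to 1420 CPM in WT libraries, and proliferation markers summed to 1970 to 1990 CPM in KO libraries, against 1500 to 1980 CPM in WT libraries. Mucous neck markers did not reverse, with 157 to 166 CPM in KO libraries at P15, against 37.5 to 76.5 CPM in WT libraries. The 2 of them that were tested rose at P5, P10 and P15. Fads1 and Elovl6 were higher in KO organoids at P15 as at P5, while Insig2, Sc5d and Hmgcs1 were lower at P5 and higher at P15. For Hmgcs1 at P15 the values were 735, 724 and 718 CPM in KO organoids, against 580, 693 and 700 CPM in WT organoids, where replicate 1 was the lowest. Whether these genes go with the markers was not tested.

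Organoids labelled Mist1+ were compared with those labelled Mist1- at P5, all WT. Sterol enzymes were mostly higher in the Mist1+ organoids: 12 of 18 rose and 2 fell, with a median log2 fold change of 0.23, against 0 for all genes. Of the 10 fatty acid genes 1 rose and 4 fell, with a median of -0.13. With 3 regulators that rose, 22 of the 34 genes were called, where 35% (18.8% higher, 16.2% lower) of all genes were. Without the WT P15 libraries in the fit 30 of the 34 rose or fell, where 52.6% (26.8% higher, 25.7% lower) of all genes were called. These WT P5 libraries are the same ones that served against the KO libraries, so the opposite signs of the 2 comparisons are not independent.

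Ebp rose most among the sterol genes, with 151, 142 and 148 CPM in Mist1+ organoids, against 86.9, 90.4 and 87.7 CPM in Mist1- organoids and a log2 fold change of 0.74 ± 0.12 (adjusted p = 4.25e-05). Sc5d had 291, 284 and 289 CPM in Mist1+ organoids, against 207, 205.5 and 204 CPM in Mist1- organoids, with 0.49 ± 0.05 (adjusted p = 2.31e-08). Hmgcs1 had 783, 786.5 and 793 CPM in Mist1+ organoids, against 626, 619 and 609 CPM in Mist1- organoids, with 0.35 ± 0.06 (adjusted p = 4.71e-05). In these genes the groups were far apart relative to their spread. The sterol genes that fell were Dhcr7, with a log2 fold change of -0.33 ± 0.06 (adjusted p = 8.97e-05), and Acat2, the cytosolic thiolase that makes acetoacetyl-CoA. Acat2 had 226, 222 and 224 CPM in Mist1+ organoids, against 327, 334 and 320.1 CPM in Mist1- organoids, with -0.55 ± 0.06 (adjusted p = 3.55e-07).

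Of the fatty acid genes, Fads1 fell most. It had 33.4, 32.3 and 31.95 CPM in Mist1+ organoids, against 60.8, 62.0 and 60.3 CPM in Mist1- organoids, with a log2 fold change of -0.91 ± 0.06 (adjusted p = 1.05e-10). Fads2 had 197, 203 and 198 CPM in Mist1+ organoids, against 247, 245 and 249.6 CPM in Mist1- organoids, with -0.31 ± 0.05 (adjusted p = 3.63e-05). Elovl6 fell with -0.34 ± 0.08 (adjusted p = 0.00301) and Acly with -0.25 ± 0.07 (adjusted p = 0.00826), while Scd1 rose with 0.27 ± 0.09 (adjusted p = 0.0266). The regulators that rose were Insig2, with 0.54 ± 0.07 (adjusted p = 4.36e-06), Insig1, with 0.36 ± 0.05 (adjusted p = 7.53e-06), and Scap, with 0.29 ± 0.05 (adjusted p = 0.000188). Pit markers summed to 4590 to 4730 CPM in Mist1+ libraries, against 523 to 548 CPM in Mist1- libraries, and proliferation markers to 1330 to 1380 CPM in Mist1+ libraries, against 1740 to 1750 CPM in Mist1- libraries. Mucous neck markers summed to 32.5 to 35.4 CPM in Mist1+ libraries, against 505 to 528 CPM in Mist1- libraries, and both that were tested fell. The part of these markers in the lipid gene results was not tested.

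Gpx4 KO organoids at P5 were then set beside the Mist1- organoids, a comparison added after the values were seen, which shares its libraries with both comparisons above. Fads1 had 60.4, 62.8 and 58.6 CPM in KO organoids, against 60.8, 62.0 and 60.3 CPM in Mist1- organoids, and the groups overlapped (log2 fold change -0.01 ± 0.06, adjusted p = 0.921). Sc5d also overlapped, with a log2 fold change of -0.004 ± 0.05 (adjusted p = 0.968). Not all genes were alike. Acat2 fell, with 241, 229.5 and 214 CPM in KO organoids and a log2 fold change of -0.52 ± 0.06 (adjusted p = 1.42e-06). Ebp, which did not overlap, and Insig1 rose, with 0.44 ± 0.12 (adjusted p = 0.0103) and 0.32 ± 0.05 (adjusted p = 7.17e-05). Of the 34 genes 8 rose and 2 fell, where 21.1% (10.2% higher, 10.9% lower) of all genes were called, and of the 10 fatty acid genes 0 rose and 1, Elovl5, fell. Without Mist1- replicate 1 the count was 6 of 34, where 16.7% of all genes were called. Pit markers summed to 1310 to 1340 CPM in KO libraries, against 523 to 548 CPM in Mist1- libraries, and all 5 rose. Mucous neck markers summed to 122 to 123 CPM in KO libraries, against 505 to 528 CPM in Mist1- libraries, and both that were tested fell, while 4 of 6 proliferation markers rose. The part of these markers was not tested. Without the WT P15 libraries in the fit 21 of the 34 genes were called, where 39.9% (19.5% higher, 20.3% lower) of all genes were.

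With passage, the genes changed little in KO organoids. At P10 against P5 in KO organoids, Fads1 and Fads2 rose and Nsdhl fell, 3 of 34 genes, where 7.61% (3.89% higher, 3.72% lower) of all genes were called. At P15 against P5 Fads1, Fads2 and Tm7sf2 rose and Insig1 fell, 4 of 34, where 13% (5.77% higher, 7.2% lower) of all genes were called. Fads1 averaged 60.6 ± 2.12 CPM at P5, 72.8 ± 0.838 CPM at P10 and 76.5 ± 3.53 CPM at P15 (SD, n = 3 each). Its log2 fold change was 0.27 ± 0.06 (adjusted p = 0.00404) at P10 against P5 and 0.34 ± 0.06 (adjusted p = 0.000227) at P15 against P5. In WT organoids at P10 against P5, Sc5d, Scd1 and Elovl5 fell and none of the 34 rose, where 4.88% (2.04% higher, 2.84% lower) of all genes were called. Elovl5 lay on the threshold, with -0.17 ± 0.05 (adjusted p = 0.05) after rounding. Without WT P5 replicate 1 or 3, or WT P10 replicate 1 or 2, 1 gene was called in WT organoids, where 3.24% to 3.42% of all genes were. Without KO P5 replicate 3 the count at P15 against P5 in KO organoids was 2, where 9.84% of all genes were called. Scd1 averaged 220.4 ± 5.13 CPM at P5 and 159.5 ± 5.27 CPM at P10 in WT organoids, a log2 fold change of -0.47 ± 0.09 (adjusted p = 0.00331). Without the WT P15 libraries in the fit the counts were 16 of 34 in KO organoids at P10, 17 at P15 and 13 in WT organoids at P10, where 22.2% (11.7% higher, 10.5% lower), 30% (14.4% higher, 15.6% lower) and 18.5% (9.19% higher, 9.27% lower) of all genes were called. The change of Fads1 from P5 to P10 differed between KO and WT organoids by 0.31 ± 0.08 (adjusted p = 0.031), 1 of 34 genes, where 5.93% (3.13% higher, 2.81% lower) of all genes were called. That call was absent in 12 of 20 alternative fits, while without the WT P15 libraries 15 of the 34 were called, where 20.1% (10.6% higher, 9.58% lower) of all genes were.

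At P15 the WT libraries disagreed with one another, and the number of calls depended on which libraries entered the fit. Against WT organoids, 16 of the 34 genes rose and 7 fell in KO organoids, where 48.9% (23.6% higher, 25.3% lower) of all genes were called. When only the 6 libraries compared entered the fit, 3 genes were called, and these were Fads1, Elovl6 and Scd2, where 19.7% of all genes were called. Scd2 had 4331, 4344 and 4361 CPM in KO organoids, against 2197, 3333 and 3099 CPM in WT organoids, with a log2 fold change of 0.59 ± 0.09 (adjusted p = 2.25e-05). Elovl6 had 243, 246 and 242 CPM in KO organoids, against 141, 206 and 174 CPM in WT organoids, with 0.49 ± 0.08 (adjusted p = 7.78e-05). The KO libraries lay above each WT library in both genes. Fads2 had 283, 293 and 281 CPM in KO organoids, against 259.6, 226 and 241 CPM in WT organoids, with 0.24 ± 0.05 (adjusted p = 0.000544). Idi1, the isopentenyl diphosphate isomerase, shows the spread, with 260.2, 263 and 258 CPM in KO organoids, against 139, 248 and 220.3 CPM in WT organoids.

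Several genes that were lower in KO organoids at P5 were not at P15. Insig2 had 86.2, 81.1 and 86.6 CPM in KO organoids at P15, against 57.4, 66.2 and 77.6 CPM in WT organoids, and its KO-over-WT log2 fold change of 0.33 ± 0.07 (adjusted p = 0.000925) differed from that at P5 by 0.94 ± 0.10 (adjusted p = 3.98e-07). Sc5d had 214, 221 and 212 CPM in KO organoids, against 185, 193 and 205 CPM in WT organoids, and its fold change differed from that at P5 by 0.64 ± 0.06 (adjusted p = 1.19e-07). In KO organoids at P15 against P5 neither was called, with 0.02 ± 0.07 (adjusted p = 0.926) for Insig2 and 0.07 ± 0.05 (adjusted p = 0.383) for Sc5d. In WT organoids at P15 against P5, Insig2 fell with -0.92 ± 0.07 (adjusted p = 1.93e-09) and Sc5d fell with -0.57 ± 0.05 (adjusted p = 2.12e-09). In all 6 of the 34 genes rose and 15 fell between these passages in WT organoids, where 51.3% (24.7% higher, 26.6% lower) of all genes were called, and 6 were called with only those 6 libraries in the fit, where 26.4% of all genes were. The difference between P15 and P5 in the KO effect was called for 13 of 34 genes, 12 upward, where 38.3% (19.7% higher, 18.6% lower) of all genes were called, for 6 in the fit of only the groups compared (29.5% of all genes), and for 22 without WT P15 replicate 2 (51.5% of all genes).

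**Figure D5:**
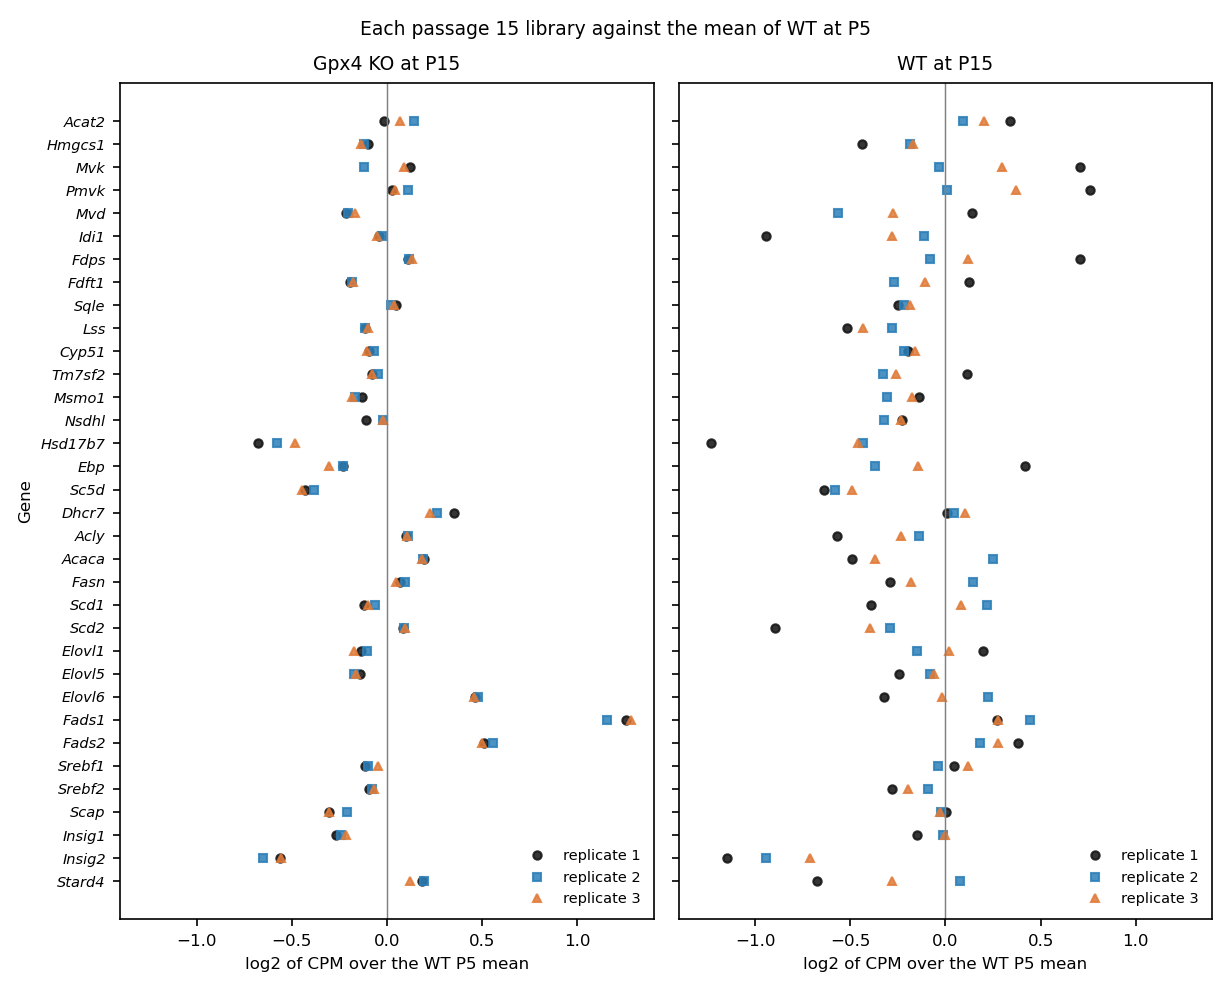
Each P15 library (symbols by replicate) as the log2 ratio of its CPM to the WT P5 mean, for the 34 genes in pathway order, in KO (left) and WT organoids (right). The 3 KO libraries nearly coincide, while in WT organoids replicate 1 departs from the others, for example in Scd2, Idi1 and Hsd17b7.

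Genes next to these pathways, from 5 lists of tested genes, were counted in the same fit, where 30.1% of all genes were called at P5 and 34.4% at P10. Their median log2 fold changes at P5 lay between -0.076 and 0.113 (all genes, -0.004). Of 8 genes of SREBP processing and turnover 1 rose and 1 fell in KO organoids at P5, and 2 rose and 1 fell at P10. Rnf145, a ubiquitin ligase that acts on Scap in mouse liver, had 107, 105.5 and 105 CPM in KO organoids at P5, against 71.2, 69.7 and 69.3 CPM in WT organoids. It rose at each passage, with a log2 fold change of 0.60 ± 0.07 (adjusted p = 1.8e-06) at P5, 0.57 ± 0.07 (adjusted p = 3.1e-06) at P10 and 0.50 ± 0.07 (adjusted p = 9.18e-06) at P15. Of 10 isoprenoid branch genes 2 rose at P5 and 3 at P10, and 0 fell. Pdss1, which makes the side chain of ubiquinone, rose, with 0.30 ± 0.08 (adjusted p = 0.00812) at P5 and 0.52 ± 0.08 (adjusted p = 3.43e-05) at P10.

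With the same shares of all genes called, 30.1% at P5 and 34.4% at P10, of 12 tested genes of sterol export, uptake and storage 1 rose and 4 fell at P5, and 1 rose and 2 fell at P10. Lipa, the lysosomal acid lipase that frees cholesterol from its esters, had 19.3, 19.9 and 18.5 CPM in KO organoids at P5, against 41.6, 41.2 and 42.8 CPM in WT organoids (log2 fold change -1.12 ± 0.08, adjusted p = 7.01e-10). Of 17 tested genes of further fatty acid supply, activation and elongation 1 rose and 6 fell at P5, and 3 rose and 4 fell at P10. Me1, the malic enzyme that supplies NADPH, had 236, 230.4 and 244 CPM in KO organoids at P5, against 373, 379 and 379 CPM in WT organoids (log2 fold change -0.67 ± 0.05, adjusted p = 5.1e-10). Mlxipl, which encodes the carbohydrate-responsive factor ChREBP, was low and rose, with 4.26, 4.14 and 4.41 CPM in KO organoids, against 1.49, 1.34 and 1.23 CPM in WT organoids (log2 fold change 1.65 ± 0.20, adjusted p = 1.96e-06). Of 12 tested genes of glycerolipid synthesis and storage 1 rose and 4 fell at P5, and 2 rose and 4 fell at P10. Dgat2, which makes triglyceride, fell, with -1.59 ± 0.11 (adjusted p = 2.62e-10) at P5 and -1.36 ± 0.12 (adjusted p = 9.88e-09) at P10. Plin2, which coats lipid droplets, fell, with -1.01 ± 0.09 (adjusted p = 2.21e-08) at P5 and -0.43 ± 0.09 (adjusted p = 0.00111) at P10. In Mist1+ against Mist1- organoids, where 35% of all genes were called, 2 of 8 SREBP processing genes rose and 1 fell, 0 of 10 isoprenoid genes rose and 2 fell, 3 of 12 sterol export genes rose and 2 fell, 6 of 17 further fatty acid genes rose and 3 fell, and 5 of 12 glycerolipid genes rose and 4 fell.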

How the data were processed

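RNA from 21 organoid libraries was analysed, 3 in each of 7 groups; sorted cells from mice on 2 diets are not analysed here. Per the submitters' processing notes, cutadapt 1.9.1, HISAT2 2.2.1, HTSeq 0.6.1 and GRCm38.p5 were used; the strand setting is not given in the sources used here. The authors deposited raw read counts per gene and FPKM. Recomputed from count, exonic length and total, 100% of the deposited FPKM values came out equal within 0.006.

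From the counts, edgeR 4.0.16 (R 4.3.3) kept 15115 genes (filterByExpr, minimum count 10, minimum total count 15), scaled by TMM and fitted group means over all 21 libraries with the robust quasi-likelihood F-test. Benjamini-Hochberg adjustment ran over all genes tested, at a threshold of 0.05, and errors of fold changes are standard errors. The script was tested on simulated data. Alternatives were median-ratio size factors, no filter, DESeq2 1.42.0, limma 3.58.1 on log2(FPKM + 1) and log2(FPKM + 0.1), other sets of libraries in the fit, a replicate block and leaving out each replicate. Gene coordinates are GENCODE M21 (GRCm38), since the coordinates in the table are of another build.

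The 34 members and all gene lists were chosen with earlier results of these data known. Members are named by pathway role, and genes of other lists by the smallest adjusted p, at most 3 for each list and comparison. Between replicates, chi-square per degree of freedom of the counts was 1.57 to 2.64 in 6 groups and 17.2 to 79.8 in WT P15, where counting error alone gives 1. One gene of a neighbouring list is not reported here.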

Additional observations from a re-analysis of the deposited data

Results flagged for a closer look

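For 14 results the difference between KO and WT organoids changed with passage by a test of that change itself, edgeR's interaction term with Benjamini-Hochberg adjustment over all genes tested. Each value is the log2 fold change of KO over WT organoids at the later passage minus that at P5. For Fads1, the delta-5 desaturase, it was 0.31 at P10.

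At P15 the values rest on the 3 WT libraries that disagreed with one another, and the part of that spread was not tested. They were 0.94 for Insig2, 0.64 for Sc5d, 0.62 for Scd2, 0.56 for Tm7sf2 and 0.36 for Hmgcs1, and these 5 were called in all 19 alternative fits. Nsdhl had 0.27, Cyp51 0.24, Idi1 0.52 and Lss 0.28, called in 18, 17, 16 and 15 of 19. Sqle had 0.18, Pmvk -0.43, Stard4 0.38 and Acly 0.25, called in 11, 8, 6 and 5 of 19. The adjusted p of Acly rounds to the threshold of 0.05.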

How the results depend on the processing

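Directions of Fads1, Fads2, Elovl6, Sc5d and Insig2 in KO against WT organoids at P5 and P10, and their calls, held in all 14 alternative fits. Counts of calls depended most on which libraries shared the estimate of spread, because of the WT P15 libraries. Medians below are log2 fold changes; the cause of each move was not tested except where fewer libraries or genes entered the fit. With median-ratio size factors the sterol median was 0.216 for Mist1+ against Mist1- and -0.113 for KO against WT at P5. With no low-count filter the sterol median was 0.183 for Mist1+ against Mist1-, -0.074 for KO against WT at P5, -0.13 for KO against WT at P10, -0.01 for WT P10 against P5, -0.085 for KO P10 against P5, -0.08 for the genotype difference in the P10 change and 0.17 for the genotype difference in the P15 change. With no low-count filter the fatty acid median was -0.176 for Mist1+ against Mist1-, 0.145 for KO against WT at P5, 0.162 for KO against WT at P10, 0.068 for KO P10 against P5 and 0.115 for the genotype difference in the P10 change. With no low-count filter the number of the 34 genes called was 1 for WT P10 against P5 (2.47% of all genes) and 5 for KO against Mist1- (9.68% of all genes). With DESeq2 the sterol median was 0.216 for Mist1+ against Mist1- and -0.112 for KO against WT at P5. With DESeq2 the number of the 34 genes called was 5 for KO P10 against P5 (8.94% of all genes), 7 for KO P15 against P5 (14.1%) and 4 for the genotype difference in the P10 change (7.34%). With limma on log2(FPKM + 1) the sterol median was 0.165 for Mist1+ against Mist1-, -0.033 for KO against WT at P5, -0.071 for KO against WT at P10, -0.01 for WT P10 against P5, -0.109 for WT P15 against P5, 0.161 for KO against Mist1-, -0.061 for the genotype difference in the P10 change and 0.116 for the genotype difference in the P15 change. With limma on log2(FPKM + 1) the fatty acid median was -0.172 for Mist1+ against Mist1-, 0.169 for KO against WT at P5, 0.202 for KO against WT at P10, 0.045 for KO P15 against P5, 0.007 for KO against Mist1- and 0.13 for the genotype difference in the P10 change. With limma on log2(FPKM + 1) the number of the 34 genes called was 2 for the genotype difference in the P10 change, where 6.52% of all genes were called. With limma on log2(FPKM + 0.1) the sterol median was 0.169 for Mist1+ against Mist1-, -0.034 for KO against WT at P5, -0.073 for KO against WT at P10, -0.01 for WT P10 against P5, -0.11 for WT P15 against P5, 0.162 for KO against Mist1-, -0.064 for the genotype difference in the P10 change and 0.117 for the genotype difference in the P15 change. With limma on log2(FPKM + 0.1) the fatty acid median was -0.188 for Mist1+ against Mist1-, 0.184 for KO against WT at P5, 0.216 for KO against WT at P10 and 0.007 for KO against Mist1-. Without the WT P15 libraries in the fit the number of the 34 genes called was 23 for KO against WT at P5, 24 for KO against WT at P10, 13 for WT P10 against P5, 16 for KO P10 against P5, 17 for KO P15 against P5, 21 for KO against Mist1- and 15 for the genotype difference in the P10 change. In the same order, 47.4%, 52%, 18.5%, 22.2%, 30%, 39.9% and 20.1% of all genes were called. With other groups left out of the fit the sterol median was -0.111 for KO against WT at P5, -0.133 for KO against WT at P10 and 0.174 for the genotype difference in the P15 change. With other groups left out of the fit the number of the 34 genes called was 23 for KO against WT at P5, 24 for KO against WT at P10, 3 for KO against WT at P15, 13 for WT P10 against P5, 6 for WT P15 against P5, 16 for KO P10 against P5, 18 for KO P15 against P5, 21 for KO against Mist1-, 15 for the genotype difference in the P10 change and 6 for the genotype difference in the P15 change. The shares of all genes called were, in that order, 50.7%, 54.1%, 19.7%, 20.5%, 26.4%, 21.9%, 32.9%, 43%, 20.3% and 29.5%.

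With each replicate left out in turn the sterol median was 0.114 to 0.139 for KO against Mist1-, -0.129 to -0.113 for KO against WT at P5, -0.054 to -0.035 for the genotype difference in the P10 change, 0.146 to 0.212 for the genotype difference in the P15 change, 0.218 to 0.233 for Mist1+ against Mist1-, -0.077 to -0.041 for KO P10 against P5, -0.034 to -0.017 for WT P10 against P5, 0.015 to 0.041 for KO P15 against P5 and -0.196 to -0.111 for WT P15 against P5. With each replicate left out in turn the fatty acid median was -0.032 to -0.004 for KO against Mist1-, 0.121 to 0.166 for KO against WT at P10, 0.079 to 0.115 for KO against WT at P5, 0.124 to 0.153 for the genotype difference in the P10 change, -0.014 to 0.2 for the genotype difference in the P15 change, -0.146 to -0.112 for Mist1+ against Mist1-, 0.063 to 0.107 for KO P10 against P5 and 0.04 to 0.063 for KO P15 against P5. With each replicate left out in turn the number of the 34 genes called was 6 to 9 for KO against Mist1-, 0 to 1 for the genotype difference in the P10 change, 9 to 22 for the genotype difference in the P15 change, 1 to 2 for WT P10 against P5 and 2 to 3 for KO P15 against P5. Of all genes, 16.5% to 16.9%, 4.58% to 4.8%, 33% to 51.5%, 3.24% to 3.42% and 9.72% to 9.84% were called, in the same order. Without WT P15 replicate 1 the WT P15 against P5 change was -0.247 for Ebp and 0.159 for Scd1, both of the other sign.

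Replicate numbers did not pair the samples: same-number correlations over 13 group pairs were -0.025 to 0.041. With a replicate block the numbers of the 34 genes called were 21 for Mist1+ against Mist1-, 10 for KO against WT at P5, 14 for KO against WT at P10, 21 for KO against WT at P15, 2 for WT P10 against P5, 20 for WT P15 against P5, 3 for KO P10 against P5, 4 for KO P15 against P5, 9 for KO against Mist1-, 1 for the genotype difference in the P10 change and 12 for the genotype difference in the P15 change. In that order, 34.7%, 29.8%, 34.1%, 48.8%, 4.67%, 51.1%, 7.29%, 12.5%, 20.6%, 5.74% and 38.1% of all genes were called.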
